A study of Populus tremula x Populus tremuloides with 12 samples.

Results

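Among the 33975 genes counted in leaves of hybrid poplar, 247 were higher in plants overexpressing MYB165 than in wild-type plants both in the greenhouse and after a week in sunlight. These 247 genes, called the raised genes here, were chosen from the same 12 libraries that describe them. A raised gene averaged at least 2 CPM (counts scaled for the size of the library, the unit of every level below) in at least 1 group. Its difference in log2(CPM + 0.5) between overexpressing and wild-type plants was at least 0.5 in each condition and at least 1 on average, and in each condition all 3 overexpressing libraries lay above all 3 wild-type libraries. Such separation alone was shown by 12.7% of all tested genes in the greenhouse and by 7.89% in sunlight. Every difference between the genotypes given below was therefore fixed by the choice of genes, is a description, and carries no test. All 247 were among the 22959 genes with enough counts to be tested for other differences, of which they made up 1.08%.

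Leaves at plastochron positions 7 to 10 were taken from 6 plants transformed with MYB165 in the binary vector pMDC32 (OE) and 6 untransformed plants (WT) of Populus tremula x Populus tremuloides, clone INRA 353-38. All had been raised from tissue culture, with 1 month in a mist chamber and 2 months in a greenhouse. The 4 groups of 3 libraries each were OE greenhouse, WT greenhouse, OE sunlight and WT sunlight, the sunlight plants having had 1 further week outdoors, so that sunlight cannot be told apart from the added week or other outdoor conditions. The sources used here do not give the number of transgenic lines behind the OE plants. pMDC32 drives its insert from a strong viral promoter that is active in most tissues.

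In poplar, the MYB protein MYB165 is known to repress genes of phenylpropanoid and flavonoid synthesis, the pathways that supply lignin precursors, flavonols and condensed tannins. In poplar leaves, sunlight is known as an inducer of these pathways, and MYB repressors are thought to dampen that response. The files give gene IDs without names or functions, so genes are given by ID, the roles of the raised genes and the transcript of MYB165 itself were not analysed here, and no sequence is shown.

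OE sunlight 2 was the shallowest library, with 5870132 gene counts, and OE sunlight 6 the deepest, with 27711999. OE greenhouse 3 stood apart on the first principal component of the tested genes, which held 37.2% of the variance, with a score of 99.0 against 35.3 and 38.0 for OE greenhouse 1 and 5. WT greenhouse 5 had 32.2% of its reads outside annotated genes, against 6.85% to 16.4% in the other 11 libraries. Some of the counts and medians that follow are also given with 1 or more of these libraries left out. RNA came from whole leaves, so more cells of a type and more RNA per cell cannot be told apart in any of the values.

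As a group the raised genes took 1.37%, 1.95% and 1.36% of all gene counts in the 3 OE greenhouse libraries, against 0.352%, 0.418% and 0.322% in WT greenhouse. In sunlight they took 1.14%, 1.19% and 1.09% in OE, against 0.493%, 0.398% and 0.493% in WT. Summed over the 247 genes, the level was 14805 ± 2750 CPM in OE greenhouse and 4040 ± 415 CPM in WT greenhouse, while in sunlight it was 11155 ± 1024 CPM in OE and 4458 ± 601 CPM in WT (SD, n = 3 each). The sum was thus 3.67-fold higher in OE than in WT in the greenhouse and 2.50-fold higher in sunlight. Without OE greenhouse 3, the OE greenhouse sum averaged 13223 CPM and the ratio to WT was 3.27. A few genes carried much of these sums: the 10 with the most reads in each group held 48.6% of the OE greenhouse sum and 50.1% of the WT greenhouse sum. With the 10 genes that had the most reads in OE greenhouse set aside, the remainder summed to 7614 CPM in OE greenhouse and 2121 CPM in WT greenhouse, while in sunlight the sum was 4616 CPM in OE and 2055 CPM in WT.

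**Figure D1:**
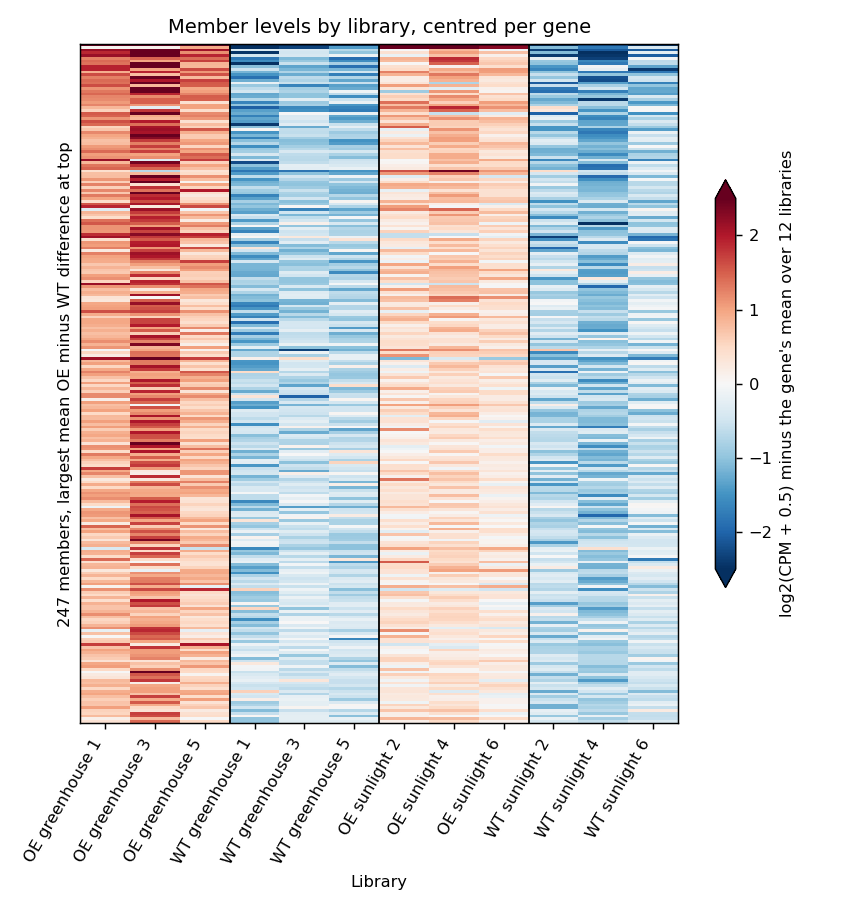
Levels of the 247 raised genes (rows, ordered from the largest mean OE minus WT difference at the top) in the 12 libraries (columns). Colour gives log2(CPM + 0.5) minus the gene's own mean over the libraries, red above and blue below it. Within a condition OE lies above WT for every gene, as the choice of genes requires, but OE cells can be blue where a gene is low in that condition. Within OE greenhouse, library 3 has the deepest red and was the highest of its group for 171 genes.

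Most raised genes had few reads in WT leaves. Their median level was 11.2 CPM in OE greenhouse and 2.86 CPM in WT greenhouse, while in sunlight it was 7.09 CPM in OE and 2.76 CPM in WT. The median of all tested genes lay between 11.6 and 11.9 CPM in each of the 4 groups. No raised gene averaged under 1 CPM in OE greenhouse and 51 did in WT greenhouse, and 6 did in OE sunlight and 57 in WT sunlight. None was without a count in any OE library, whereas 6 lacked counts in at least 1 WT library. Since a true level of 3 counts can give 0, such a library allows at most 0.194 CPM in WT sunlight 4 and 0.363 CPM in WT greenhouse 1, counting error only. By their WT greenhouse level, 51 genes lay under 1 CPM, 134 from 1 to 10, 54 from 10 to 100, and 8 at 100 CPM or more. The median greenhouse difference in log2(CPM + 0.5) in these 4 classes was 1.80, 1.62, 1.72 and 1.58, and the median sunlight difference was 1.14, 1.10, 1.04 and 0.95. The medians of the 4 classes thus lay close together in each condition on this scale. The added 0.5 shrinks differences most in the class under 1 CPM, so how the fold difference depends on the WT level is not read from them.

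The differences were moderate for nearly all of the raised genes. The mean of the 2 OE minus WT differences was between 1 and 1.5 for 158 genes, between 1.5 and 2 for 68, between 2 and 3 for 19, and above 3 for 2. The median difference was 1.69 in the greenhouse, or 3.22-fold on the CPM + 0.5 scale, and 1.10 in sunlight, or 2.14-fold, against medians of -0.01 in both conditions over all tested genes. In both conditions separately, 143 genes reached a difference of 1. The rule did not ask for separation across conditions, yet for 191 genes all 6 OE libraries lay above all 6 WT libraries, which 1.95% of all tested genes showed. That separation follows largely from the rule, so nothing is read from it. A limma fit over all genes called 175 of the 247 higher in OE in the greenhouse, where 2.24% of all tested genes were called higher, and 51 in sunlight, where 0.353% were. Since these contrasts chose the genes, the calls only describe them. The greenhouse count was 115, 105 and 61 without WT greenhouse 1, 3 and 5, where 1.28%, 0.867% and 0.502% of all tested genes were called higher. Without OE greenhouse 1, 3 and 5 it was 159, 165 and 185, against 2.19%, 2.07% and 2.36% of all tested genes. The sunlight count was 27, 26 and 29 without OE sunlight 2, 4 and 6, was 33, 33 and 31 without WT sunlight 2, 4 and 6, with 0.135% to 0.197% of all tested genes called in these 6 fits. It was 101 without OE greenhouse 3, a library of the other condition that enters the common variance estimate, where 0.926% of all tested genes were called. With both OE greenhouse 3 and WT greenhouse 5 left out, the counts were 66 in the greenhouse and 87 in sunlight, against 0.662% and 0.772% of all tested genes.

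The limit on the mean difference cut through a continuous range. The 3 raised genes nearest to it had mean differences of 1.005, 1.006 and 1.007, and the 3 genes just outside, which met every other part of the rule, had 0.9997, 0.9987 and 0.9981. The level of the first gene inside was 14.5 CPM in OE greenhouse and 5.40 CPM in WT greenhouse, while in sunlight it was 9.35 CPM in OE and 5.45 CPM in WT. The first gene outside had 3.56 CPM in OE greenhouse and 1.22 CPM in WT greenhouse, while in sunlight it was 1.43 CPM in OE and 0.618 CPM in WT. In all, 154 genes met every part of the rule but the mean difference. A further 84 genes met both limits on the differences but had overlapping libraries, 56 of them only in sunlight, 16 only in the greenhouse and 12 in both. Sunlight thus decided membership more often than the greenhouse: 570 genes of sufficient level had a difference of at least 1 without overlap in the greenhouse and 192 in sunlight. The 143 that did so in both were 25.1% of the greenhouse genes and 74.5% of the sunlight genes.

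Potra000033g00168 had by far the largest difference. It stood at 1200, 1392 and 1048 CPM in the OE greenhouse libraries, against 12.8, 10.3 and 12.1 CPM in WT greenhouse. In sunlight it stood at 1066, 966 and 911 CPM in OE, against 16.2, 27.3 and 8.46 CPM in WT. The 6 OE libraries lay close together over both conditions, and the lowest of them, at 911 CPM, was far above the highest WT library, at 27.3 CPM. The differences in log2(CPM + 0.5) were 6.62 in the greenhouse and 5.93 in sunlight. The limma log2 fold change of this gene with sunlight, averaged over genotypes, was 0.04 ± 0.26 (SE), with adjusted p = 0.939. The estimate was -0.30 ± 0.39 in OE and 0.37 ± 0.34 in WT (log2, SE), so a moderate change in either direction is not excluded.

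Potra000280g01040 came second, with a mean difference of 3.26, and no other raised gene exceeded 2.69. Its levels were 3.90, 4.06 and 7.61 CPM in OE greenhouse and 0.121, 0.344 and 1.08 CPM in WT greenhouse. They were 40.7, 34.2 and 19.9 CPM in OE sunlight and 1.48, 0.713 and 2.62 CPM in WT sunlight. The WT greenhouse values rested on 19 counts in all. It was one of the few raised genes whose OE minus WT difference in log2(CPM + 0.5) was larger in sunlight, at 3.97, than in the greenhouse, at 2.54. The added 0.5 weighs most on the low WT greenhouse levels. The limma estimate of the OE effect in sunlight minus that in the greenhouse was 0.85 ± 1.03 (log2, SE).

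**Figure D2:**
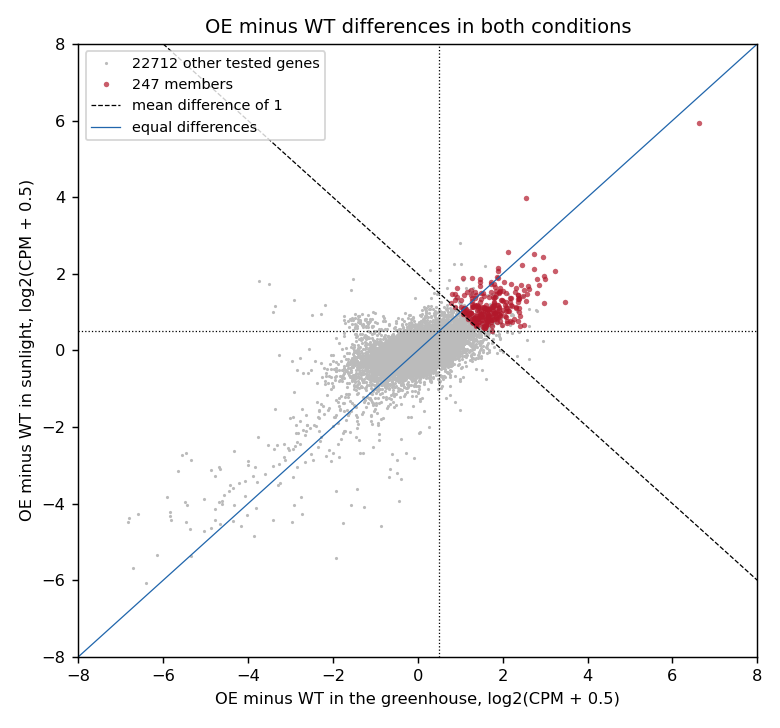
OE minus WT difference in log2(CPM + 0.5) in the greenhouse (x axis) and in sunlight (y axis) for the 247 raised genes (red) and the other tested genes (grey). Dotted lines mark 0.5, the dashed line a mean difference of 1, and the blue line equal differences. Of the raised genes, 212 lie below the blue line, with Potra000033g00168 alone at the top right and Potra000280g01040 above the line at 2.54 and 3.97.

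For 212 of the 247 raised genes the OE minus WT difference was larger in the greenhouse than in sunlight, and for 35 it was larger in sunlight. The limma estimate of the difference between the 2 effects (sunlight minus greenhouse) had a median of -0.64 over the raised genes and 0.00 over all tested genes. This quantity is built from the 2 differences that chose the genes, and the requirement that both be at least 0.5 limits how far they could diverge, so it is given for the raised genes as a description with no test. Over all tested genes limma called 0 for it at adjusted p under 0.05, with 6% at an unadjusted p under 0.05. The median over the raised genes was -0.85 without WT sunlight 4. It was -0.46 without OE greenhouse 3 and -0.40 without both OE greenhouse 3 and WT greenhouse 5.

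At the far end of this range, Potra008842g26239 stood at 2.95, 2.85 and 3.68 CPM in OE greenhouse, against 0.121, 0.230 and 0 CPM in WT greenhouse. In sunlight it stood at 1.76, 2.83 and 1.42 CPM in OE, against 0.270, 0.259 and 0.635 CPM in WT. Only 3 counts lay in all of WT greenhouse against 157 in OE greenhouse, a count ratio of 33.4 (exact 95% interval 11.2 to 164, which covers counting error only), while the sunlight counts of 78 in OE and 23 in WT gave a ratio of 4.12 (2.56 to 6.87). Potra185187g28359 had 2.33, 2.07 and 3.68 CPM in OE greenhouse against 0, 0.574 and 0.216 CPM in WT greenhouse. Its sunlight levels were 1.92, 1.63 and 2.28 CPM in OE and 0.877, 0.842 and 1.06 CPM in WT. For Potra008842g26239 the sunlight libraries lay below the greenhouse libraries in OE and above them in WT. For Potra185187g28359 the OE libraries of the 2 conditions overlapped and the WT sunlight libraries lay above the WT greenhouse libraries. The fitted difference between effects was -2.60 ± 0.84 for Potra008842g26239 and -2.55 ± 0.73 for Potra185187g28359 (log2, SE).

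At the other end, Potra002483g18774 stood at 3.02, 7.08 and 4.11 CPM in OE greenhouse and 0.967, 1.26 and 2.87 CPM in WT greenhouse. Its sunlight levels were 3.20, 4.57 and 3.35 CPM in OE and 0.405, 1.56 and 0.254 CPM in WT. The fitted difference between effects was 1.43 ± 0.79 (log2, SE). Potra170995g27562 had 1.89, 3.71 and 1.48 CPM in OE greenhouse and 0.967, 1.03 and 1.15 CPM in WT greenhouse. In sunlight it had 3.68, 3.27 and 3.76 CPM in OE and 0.944, 1.62 and 0.550 CPM in WT. Its fitted difference was 1.10 ± 0.58 (log2, SE). In both genes the WT levels of the 2 conditions overlapped, as did the OE levels.

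OE greenhouse 3 stood above the other OE greenhouse libraries for most raised genes. It was the highest of the 3 OE greenhouse libraries for 171 of the 247 (69.2%), whereas it was the highest for 37.7% of all tested genes. In 75 raised genes (30.4%) its log2(CPM + 0.5) was at least 1 above the mean of OE greenhouse 1 and 5, a step that 4.22% of all tested genes showed, and in 6 it was at least 1 below, which 6.37% of all tested genes showed. The rule favours genes that are high in any OE library, so part of this follows from the choice. With the OE greenhouse mean taken from libraries 1 and 5 alone, the median greenhouse difference was 1.49 rather than 1.69, 220 genes kept a difference of at least 1 and 244 one of at least 0.5, and the difference was still larger than that in sunlight for 198 genes. The 75 genes that stood high in OE greenhouse 3 had a median greenhouse difference of 1.84 and the other 172 had 1.63, while from libraries 1 and 5 alone these were 1.37 and 1.61. Their median sunlight difference, which the rule also used, was 1.09 and that of the other 172 was 1.10. Recomputed without OE greenhouse 3, the rule found 246 genes, of which 212 were among the 247. Without both OE greenhouse 3 and WT greenhouse 5 it found 245, of which 209 were among the 247.

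**Figure D3:**
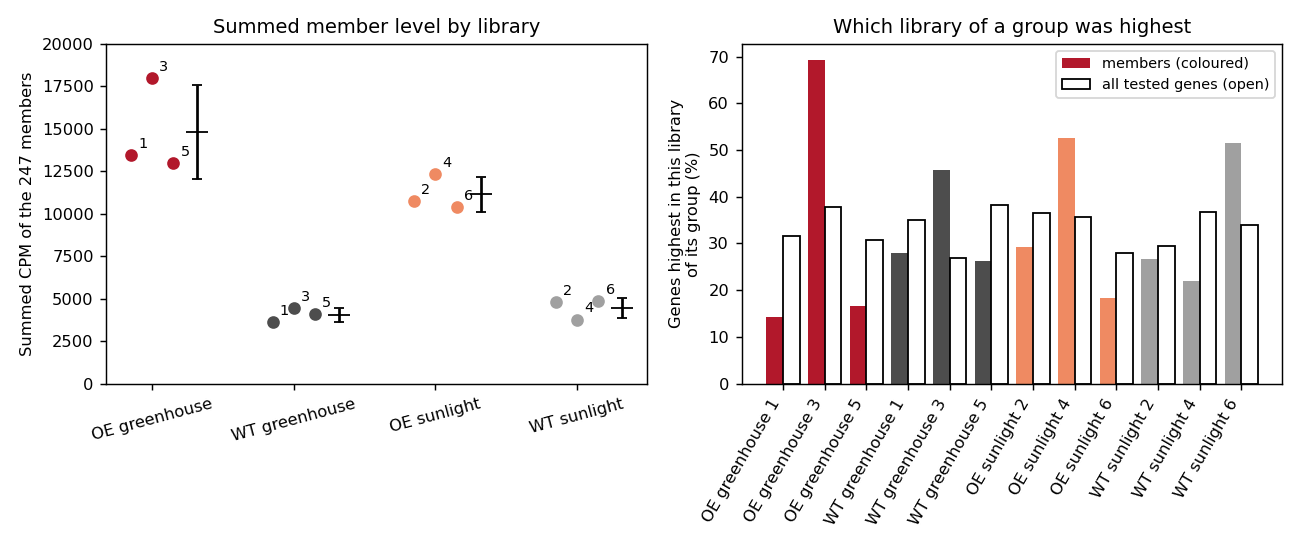
Left, summed CPM of the 247 raised genes in each library (points, numbered by replicate), with the group mean and SD (n = 3) beside them. OE greenhouse libraries lie at 12999 to 17970 CPM and WT greenhouse libraries at 3606 to 4434, and OE sunlight libraries lie at 10414 to 12324 and WT sunlight libraries at 3765 to 4834. Right, the percent of raised genes (coloured bars) and of all tested genes (open bars) for which a library was the highest of its group, with OE greenhouse 3 at 69.2% of raised genes and 37.7% of all tested genes.

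Imbalances ran through the other groups too. OE sunlight 4 was the highest of its group for 130 raised genes (52.6%), against 35.6% of all tested genes. Among WT libraries, sunlight 6 was the highest for 127 (51.4%), against 33.9% of all tested genes, and greenhouse 3 for 113 (45.7%), against 26.9%. WT sunlight 4 was the lowest for 163, and the matching share of all tested genes was not computed. The rule favours genes that are high in any OE library or low in any WT library, so part of the OE sunlight 4 and WT sunlight 4 values follows from the choice. It does not favour high WT libraries, and the cause of the WT sunlight 6 and WT greenhouse 3 shares was not tested. The sunlight differences of the raised genes leaned on WT sunlight 4: without it their median was 0.94 in place of 1.10, and 219 of the 247 still met the rule. The spread between replicates was wider for the raised genes than for all tested genes in each group. The median SD was 34.9% of the mean in OE greenhouse and 30.4% in WT greenhouse, and 18.4% in OE sunlight and 34.5% in WT sunlight, while over all tested genes it was 20.1%, 13.8%, 14.7% and 14.6%. The number of counts behind a level bears on its spread and its part here was not tested.

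The effect of sunlight averaged over both genotypes was not itself part of the choice of genes. Its weights cancel against each OE minus WT difference, so that it is uncorrelated with them where the 4 groups vary alike. The groups did not vary alike, OE greenhouse being the widest, so values without OE greenhouse 3 are given too. The level limit also bears on it: 32 raised genes reached 2 CPM in a greenhouse group only and 2 in a sunlight group only, so that their choice favoured that condition, while 213 reached it in both. The counts below are therefore read as a description of the list. Of the 247 raised genes, 30 (12.1%) fell and 6 (2.43%) rose in sunlight at limma adjusted p under 0.05, where 6.15% of all tested genes fell and 6.87% rose. The other 211 did not pass. Of those that fell, 25 had reached 2 CPM in both conditions and 5 in the greenhouse only, and of those that rose, 5 had reached it in both and 1 in sunlight only. Among the 209 raised genes that averaged at least 2 CPM over all 12 libraries, a limit chosen after seeing the data, 28 fell (13.4%) and 6 rose (2.87%), where 6.59% and 7.55% of the 19474 tested genes with that average did. The estimates were negative for 198 raised genes and positive for 49, with a median log2 fold change of -0.36 against 0.01 over all tested genes. Without OE greenhouse 3, 37 raised genes fell (15%, against 6.76% of all tested genes), 27 of them among the 30, and 9 rose (3.64%, against 7.3%). The estimates were then negative for 176 and positive for 71, with a median of -0.21. Without WT greenhouse 5, 20 fell (against 3.97% of all tested genes), 18 of them among the 30, and 6 rose (against 4.76%), with a median of -0.35. Without both of these libraries, 27 fell (against 5.28%), 20 of them among the 30, and 7 rose (against 5.81%), 4 of them among the 6, with a median of -0.21. The count that fell was 16 without OE sunlight 6, where 2.86% of all tested genes fell. With library quality weights 62 fell and 11 rose, where 12.4% and 12.8% of all tested genes did.

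**Figure D4:**
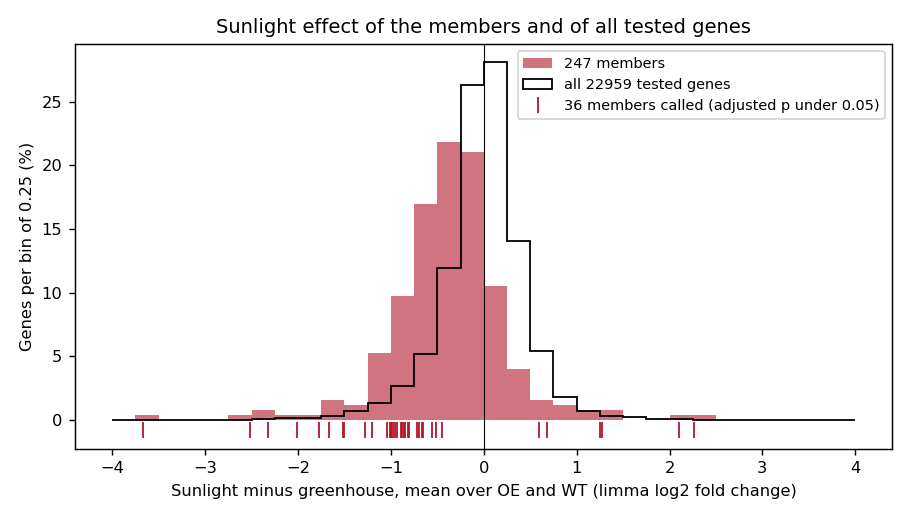
Distribution of the limma log2 fold change of sunlight against greenhouse, averaged over OE and WT, for the 247 raised genes (red) and all tested genes (black outline), as percent of genes per bin. Ticks below the axis mark the raised genes that passed adjusted p under 0.05, 30 on the negative and 6 on the positive side. The red histogram is centred left of the black one, with medians of -0.36 and 0.01.

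Within each genotype the estimates were as follows. The median log2 change with sunlight was -0.69 in OE and -0.02 in WT, and the estimate was negative for 221 genes in OE and for 127 in WT. All 3 OE sunlight libraries lay below all 3 OE greenhouse libraries for 112 raised genes (45.3%, against 14% of all tested genes), and above them for 6 (2.43%, against 14.3%). In WT the sunlight libraries lay below the greenhouse libraries for 28 (11.3%, against 11.5%) and above them for 15 (6.07%, against 13.8%). The OE and WT levels in each condition entered the choice of genes, so these values are given as a description and no test is reported for them. The summed level in sunlight was 0.753 times that in the greenhouse in OE plants and 1.10 times in WT plants. The OE values lean on OE greenhouse 3: without it the OE greenhouse sum averaged 13223 CPM in place of 14805 CPM, against 11155 CPM in OE sunlight. The OE median of -0.69 is given with all libraries only.

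The 30 raised genes that fell were called on the mean of both genotypes, and the estimate was negative in OE and in WT for each of them. Tests within each genotype are not reported here. Their median log2 change was -0.97 over both genotypes, -1.03 in OE and -0.78 in WT. Their summed level was 514 ± 35.1 CPM in OE sunlight and 1188 ± 328 CPM in OE greenhouse, and 191 ± 28.3 CPM in WT sunlight and 316 ± 23.2 CPM in WT greenhouse (SD, n = 3 each). Sunlight and greenhouse libraries did not overlap for 28 of the 30 in OE, for 20 in WT and for 18 in both. Over all tested genes, sunlight lay below greenhouse without overlap for 14% in OE and 11.5% in WT. The call used these same libraries, so the signs and the lack of overlap follow largely from it and nothing is read from them. Of the 30, 4 were among the 75 genes that stood high in OE greenhouse 3, which made up 30.4% of the raised genes. A wide spread between replicates makes a call less likely, so nothing is read from that count either. Of the 6 that rose, 4 had no overlap in either genotype, which again follows largely from the call. All 6 had positive estimates in both genotypes, with a mean over both between 0.60 and 2.26 on the log2 scale. Their summed level was 948 ± 185 CPM in OE sunlight and 573 ± 124 CPM in OE greenhouse, and 451 ± 157 CPM in WT sunlight and 140 ± 37.7 CPM in WT greenhouse (SD, n = 3 each).

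Potra169505g34200 had the most negative sunlight estimate of the genes called. It stood at 0.320, 0.871 and 0.449 CPM in OE sunlight, against 7.29, 12.1 and 5.45 CPM in OE greenhouse. In WT it stood at 0.202, 0.130 and 0.042 CPM in sunlight, against 1.45, 1.95 and 1.08 CPM in the greenhouse. Every sunlight library of both genotypes thus lay below every greenhouse library, WT included. The log2 fold change over both genotypes was -3.67 ± 0.47 (SE), or between -3.85 and -3.35 with any 1 library left out. It reached 2 CPM in OE greenhouse only, so its choice favoured a high greenhouse level and the estimate is a description. Its sunlight levels rested on 23 counts in OE and 6 in WT.

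Potra007363g25943 followed, at 3.04, 5.77 and 2.90 CPM in OE sunlight and 15.6, 28.4 and 14.6 CPM in OE greenhouse. Its WT levels were 0.202, 0.324 and 0.338 CPM in sunlight and 2.18, 2.18 and 1.65 CPM in the greenhouse. Sunlight libraries lay below greenhouse libraries in both genotypes without overlap, and the lowest OE sunlight library still lay above the highest WT greenhouse library. The log2 fold change with sunlight was -2.52 ± 0.37 (SE), with limma adjusted p = 0.00269. It also had the third largest OE minus WT difference of all raised genes, 2.94 in the greenhouse and 2.43 in sunlight.

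Of the genes that rose, Potra001327g11400 stood at 6.08, 11.00 and 4.18 CPM in OE sunlight, against 2.39, 0.863 and 2.30 CPM in OE greenhouse. In WT it stood at 2.50, 1.04 and 1.57 CPM in sunlight, against 0.121, 0.115 and 0.287 CPM in the greenhouse. WT sunlight leaves thus reached the level of OE greenhouse leaves, and OE sunlight leaves lay above both. The log2 fold change with sunlight was 2.26 ± 0.52 (SE). The OE minus WT difference in log2(CPM + 0.5) was 1.73 in the greenhouse and 1.74 in sunlight. The added 0.5 weighs most on the low WT greenhouse levels, so these values do not show equal effects. The ratio of mean CPM in OE to WT was 10.6 in the greenhouse and 4.17 in sunlight. The limma estimate of the OE effect in sunlight minus that in the greenhouse was -1.16 ± 1.05 (log2, SE). Potra001327g11400 reached 2 CPM in OE sunlight only, so its choice favoured a high sunlight level and the sunlight estimate is a description. Without WT greenhouse 3 it was no longer among the genes called, at 2.18, and its WT greenhouse level rested on 6 counts. Potra000280g01040, whose levels are given above, rose by 2.104 ± 0.51 (log2, SE), with limma adjusted p = 0.0234. Its estimate was 1.81 (limma adjusted p = 0.0547) without WT greenhouse 1, 2.05 (0.0656) without WT greenhouse 3, and 2.45 (0.0774) without both OE greenhouse 3 and WT greenhouse 5.

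**Figure D5:**
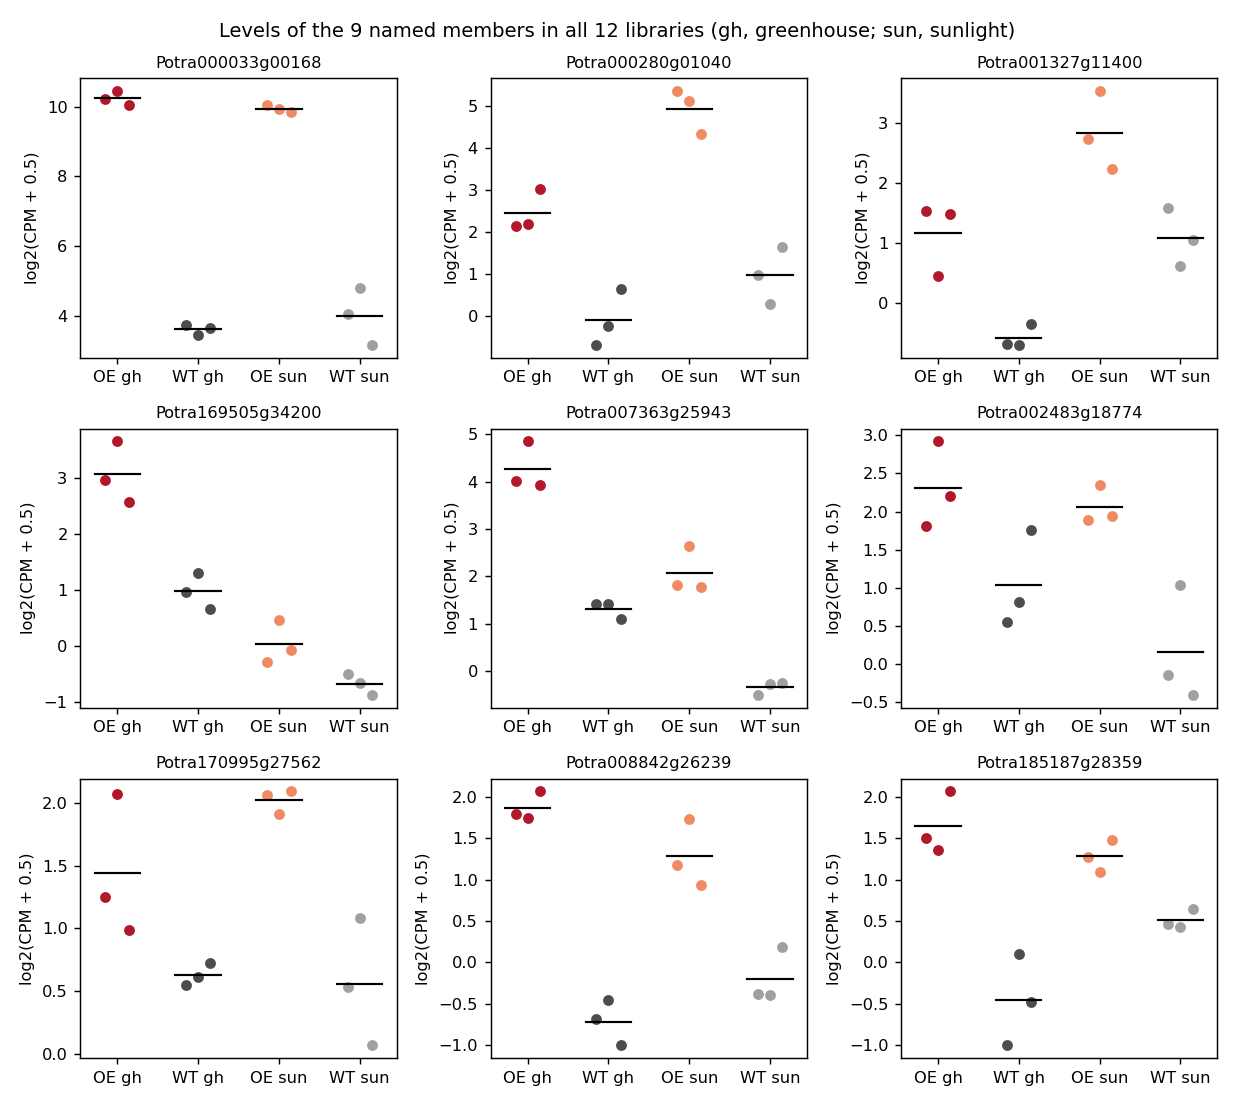
Levels of the 9 raised genes named in the text, as log2(CPM + 0.5), in each of the 12 libraries (points) with the group mean (line). In each panel the OE points of a condition lie above its WT points. Potra169505g34200 and Potra007363g25943 are lower in sunlight in both genotypes, and Potra001327g11400 and Potra000280g01040 are higher.

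The IDs of the raised genes carried 241 different prefixes before the letter g, of which 6 were shared by 2 raised genes each and none by more. In 5 cases 2 raised genes were neighbouring entries of the listing, which involved 10 genes. The sources used here do not give how the counting treated strand and overlap, so neighbouring entries could share reads, and the positions of the genes were not analysed here.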

How the data were processed

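The authors deposited raw read counts per gene for each library, not normalized. Per the submitters' processing notes, HTSeq 0.6.1, TopHat2 2.1.1 and Cufflinks were used, in roles the notes do not state. Genome build, annotation and strand setting: not given in the sources used here. Each file held 33980 entries, of which the 5 summary entries (unassigned, ambiguous and multiply aligned reads) were kept out of library sizes. The files are tab-separated under a comma-separated name, so their unit could not be checked automatically, and limma 3.58.1 with voom in R 4.3.3 was used in place of a count model.

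CPM values use trimmed-mean-of-M-values (TMM) scaling over all genes, trimming 30% of log ratios and 5% of levels. A gene was tested if 3 or more libraries reached 0.69 CPM, which is 10 counts in a library of median size, and its counts summed to 15 or more. The fit used voom weights, group means over all 12 libraries and robust variance moderation, and p-values were adjusted by Benjamini-Hochberg across 22959 genes with adjusted p under 0.05 as the threshold. The fit was tested on simulated counts with the same setting for replicate spread in every gene and library. The groups here did not vary alike, so the simulation does not show how the fit performs on these data. Chi-square per degree of freedom between replicates was between 12.6 and 73.4, so no pair agreed within sampling noise. The labels name separate plants. The members and tests were chosen with earlier results of these data known. The genes named are, per comparison, the 2 largest in each direction: by mean OE minus WT difference, by sunlight effect among called genes, and by difference between OE effects.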

Additional observations from a re-analysis of the deposited data

How the results depend on the processing

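Leaving out each library in turn gave 246 to 301 genes meeting the rule, 16 to 37 raised genes that fell and 4 to 9 that rose in sunlight, 61 to 185 called for OE in the greenhouse, 26 to 101 called for OE in sunlight, and 0 throughout for the difference between OE effects. In the fits at the ends of these ranges, 2.86% and 6.76% of all tested genes fell and 3.36% and 7.3% rose. For OE, 0.502% and 2.36% were called higher in the greenhouse and 0.135% and 0.926% in sunlight. The rule found 142 genes with a pseudocount of 2, 136 with a level of 10 CPM and 89 with a mean difference of 1.5, all of them among the 247. It found 282 with a pseudocount of 0.1, 253 with median-of-ratios scaling and 290 with library totals alone, and 246 of the 247 met it under each of these scalings. Library totals moved the medians of all tested genes to 0.23 for the OE effect in the greenhouse, 0.10 for the sunlight effect and -0.25 for the difference between OE effects, and the median of that difference over the raised genes to -0.91, while all 247 kept positive OE minus WT differences. Library quality weights gave 62 that fell, 11 that rose and 125 called for OE in sunlight, against 12.4%, 12.8% and 1.35% of all tested genes. Leaving out both libraries that stand apart gave 66 and 87 called for OE in the greenhouse and in sunlight, against 0.662% and 0.772%. With the replicate number as a block, 111 and 21 were called for OE in the greenhouse and in sunlight, against 0.814% and 0.105% of all tested genes, and 0 for the difference. With an estimated block correlation of -0.18, 49 fell and 7 rose, against 9.34% and 10% of all tested genes. Same-numbered OE and WT libraries deviated together only for number 3 (r = 0.07 across genes, against -0.50 to -0.11), so the numbers were not taken as pairs. Scaling factors from the tested genes alone, chosen after seeing the data, gave 255 genes, which held all 247. The causes of these shifts were not tested. Depth limits the genes under 1 CPM most: the lowest group total of a raised gene was 3 counts.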
